A study of Homo sapiens with 6 samples.

Results

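Acetylation of histone H3 at lysine 27 (H3K27Ac) was mapped in cells labelled OCI-AML3 after transfection with a guide RNA against mutant NPM1 (sgNpm1A) or with a control guide RNA (sgNeg). The comparison took the broad H3K27Ac peaks of both guides on chromosomes 1 to 22 and X, in hg19 coordinates, with overlapping rows merged. There were 327666 sgNeg and 317029 sgNpm1A peaks, out of 1104902 regions in the 4 peak lists of the series. OCI-AML3 is an established cell line from a human acute myeloid leukemia (AML), and it carries a heterozygous mutation in NPM1, a heterozygous mutation in DNMT3A and a homozygous mutation in NRAS. Both groups share these. Per the labels the cells were cultured for 3 days after transfection, while the text of the study gives a longer time for the ChIP-Seq experiment. Each guide had 1 H3K27Ac library, made from a bulk culture. The spread between replicates is therefore unknown, differences were not tested, and each statement describes 1 pair of libraries. The names of both deposited H3K27Ac files carry the tag OCI2 and those of the H3K4me3 files the tag OCI3, while every label names OCI-AML3. The meaning of the tags was not stated. The study also used OCI-AML2 cells, another AML line. Unedited, that line has wild-type NPM1 only and so would hold no mutant target for the guide. The study also made OCI-AML2 cells with a knocked-in mutant copy, which express mutant NPM1. Which line gave the H3K27Ac libraries could not be told from the peak lists, and each comparison of sgNpm1A with sgNeg depends on it. A peak list does not show the edit, so the level of mutant NPM1 in these libraries was not checked.

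H3K27Ac is deposited by the acetyltransferases EP300 and CREBBP on nucleosomes beside active promoters and enhancers, where it is bound by bromodomain proteins. At most active promoters it covers a short stretch around the transcript start, often over a CpG island, a stretch of DNA rich in the dinucleotide CpG. Broad acetylated domains mark clusters of enhancers and genes of cell identity. In AML with mutant NPM1, the HOXA and HOXB genes, their cofactor MEIS1 and the menin and MLL complex that acts on them are well known for sustaining the leukemic program.

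The CpG content of the sequence at gene starts went along with whether acetylation was in sgNeg alone or in both lists, with wide overlap. The median observed-to-expected CpG in the 2 kb around the start was 0.688 (quartiles 0.560 and 0.779) for promoters in sgNeg alone. For those in both lists it was 0.613 (0.347 and 0.735). The 150 bases before the gene start are shown for 3 regulators of blood cells (MYB, CEBPA and ETV6) whose promoters had no sgNpm1A peak, and for 3 genes (FCMR, KISS1 and CPN2) whose start lay under a peak in both lists. They were picked after the values were seen, as examples rich and poor in CpG, and other genes went against the contrast (ZEB2, also without a sgNpm1A peak, held 0 CG in the same stretch). They come from the GRCh37 (hg19) reference. Capitals mark every CG dinucleotide, written 5′ to 3′ on the strand of the gene.
MYB: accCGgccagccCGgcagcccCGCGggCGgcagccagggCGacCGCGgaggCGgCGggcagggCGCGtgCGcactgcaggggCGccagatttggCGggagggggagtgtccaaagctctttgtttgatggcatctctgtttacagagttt
CEBPA: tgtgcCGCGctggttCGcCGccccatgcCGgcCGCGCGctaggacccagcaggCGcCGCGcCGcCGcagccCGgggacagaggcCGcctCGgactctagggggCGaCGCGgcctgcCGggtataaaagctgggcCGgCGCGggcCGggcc
ETV6: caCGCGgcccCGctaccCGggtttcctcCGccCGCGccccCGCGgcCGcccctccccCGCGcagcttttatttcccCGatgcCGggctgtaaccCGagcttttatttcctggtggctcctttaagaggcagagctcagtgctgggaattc
FCMR: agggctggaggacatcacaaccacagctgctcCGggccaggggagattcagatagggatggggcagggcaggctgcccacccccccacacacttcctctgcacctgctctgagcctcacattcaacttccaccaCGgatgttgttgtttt
KISS1: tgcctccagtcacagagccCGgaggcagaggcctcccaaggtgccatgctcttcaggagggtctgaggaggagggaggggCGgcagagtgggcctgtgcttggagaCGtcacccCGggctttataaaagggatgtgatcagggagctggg
CPN2: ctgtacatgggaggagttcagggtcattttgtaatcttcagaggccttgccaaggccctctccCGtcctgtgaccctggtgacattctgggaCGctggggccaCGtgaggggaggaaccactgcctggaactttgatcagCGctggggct
The MYB stretch (chr6:135502296-135502445, plus strand) held 15 CG, that of CEBPA (chr19:33793441-33793590, minus strand) 24, and that of ETV6 (chr12:11802458-11802607, plus strand) 15. The FCMR stretch (chr1:207096593-207096742, minus strand) held 2 CG, that of KISS1 (chr1:204165620-204165769, minus strand) 4, and that of CPN2 (chr3:194072058-194072207, minus strand) 4. None of the 6 stretches overlapped an annotated exon. MYB, CEBPA and ETV6 encode transcription factors of blood progenitors and myeloid cells, FCMR an Fc receptor for IgM, KISS1 the kisspeptin precursor and CPN2 a subunit of carboxypeptidase N.

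The first question was in which genomic class acetylation was kept or missing. Bases within 1 kb of any annotated transcript start, on either side, were promoter bases. Exonic, intronic and intergenic bases were the rest, in that order of priority. Promoters stood out as the class with the lowest ratio of sgNpm1A to sgNeg coverage. Of all promoter bases, sgNeg peaks covered 20.1% and sgNpm1A peaks 10.8%, which gives a ratio of 0.540. The ratio was 0.862 for exonic bases (13.5% and 11.7%), 0.941 for intronic bases (7.19% and 6.77%) and 1.04 for intergenic bases (5.53% and 5.74%). Over all chromosomes together the coverage of the other classes was thus closer between the lists, while sets of chromosomes differed, as given below. Over the whole called genome the values were 7.76% and 6.86%, a ratio of 0.884. These ratios use all peaks, and the lists end at unlike limits. The largest q was 0.0707 in sgNeg and 0.0437 in sgNpm1A, and the narrowest peak 110 and 140 bp.

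**Figure D1:**
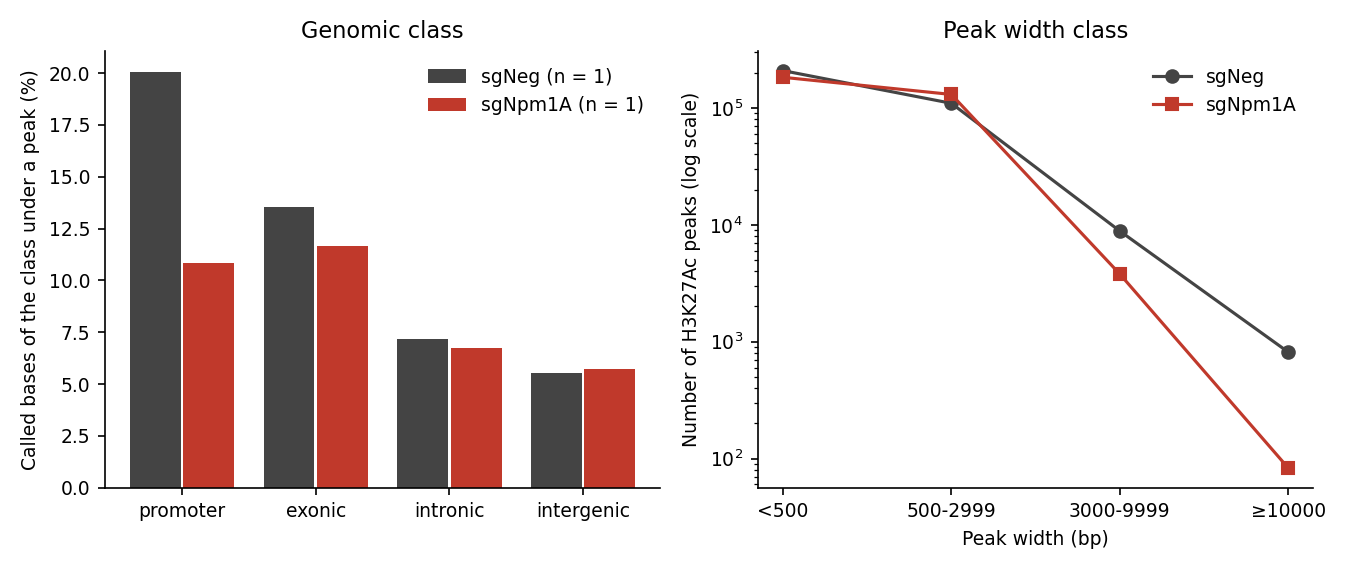
The left panel plots the percentage of called bases of each genomic class under an H3K27Ac peak as bars from 0, and the right panel plots the number of peaks in each width class on a log scale, for sgNeg and sgNpm1A (1 library each, no error bars). Promoter coverage is 20.1% in sgNeg and 10.8% in sgNpm1A while intergenic coverage is 5.53% and 5.74%, and the peaks of 10000 bp or more number 814 and 83.

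Peaks were called kept where at least 1 bp lay under a peak of the other list, and missing otherwise. By this count 49.3% of sgNeg peaks and 48.6% of sgNpm1A peaks were missing in the other list. A peak took the highest class it touched. Of 50285 sgNeg promoter peaks, 52.6% (95% Wilson interval 52.2 to 53.0%, which covers counting error only, as all intervals here) were kept, against 59.0% of exonic, 48.6% of intronic and 50.8% of intergenic peaks. Counted by overlap alone, promoters thus did not stand out. Counted by bases, 30.9% of the length of sgNeg promoter peaks lay under sgNpm1A peaks, against 41.8% for exonic, 36.5% for intronic and 39.0% for intergenic peaks. In the other direction, 66.3% of sgNpm1A promoter peaks and 47.1% of sgNpm1A intergenic peaks were kept.

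Strength separated the classes. The deposited fold enrichment is scaled within each library, so it was used only to band or rank peaks of 1 list. Among sgNeg peaks with a fold under 3, 51.6% of promoter peaks and 46.3% of intergenic peaks were kept. At a fold of 8 or more, 193 promoter peaks (38.7%, 34.5 to 43.0%) were kept, against 48 of 49 intergenic peaks (98.0%, 89.3 to 99.6%) and 37 of 39 intronic peaks (94.9%, 83.1 to 98.6%). The strongest control promoters were therefore overlapped less often than the strongest control peaks between genes, and only 13.4% of the bases of these promoter peaks lay under sgNpm1A peaks. The intergenic peaks of this band were few and included loci far from genes where the placement of reads was not checked. From a fold of 4 to under 6, 40.2% of 5649 promoter peaks and 72.4% of 1466 intergenic peaks were kept. With the 9408 sgNeg and 2870 sgNpm1A peaks of q under 1e-05 alone, 2.52% of sgNeg promoter peaks and 44.6% of intergenic peaks were kept. These peaks included 6746 sgNeg and 336 sgNpm1A promoter peaks, against 1056 and 1029 intergenic ones. With so few sgNpm1A promoter peaks left, the promoter share could only be low, so this contrast does not compare the classes. Against all sgNpm1A peaks, 38.8% of those promoter peaks and 75.1% of those intergenic peaks were kept.

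**Figure D2:**
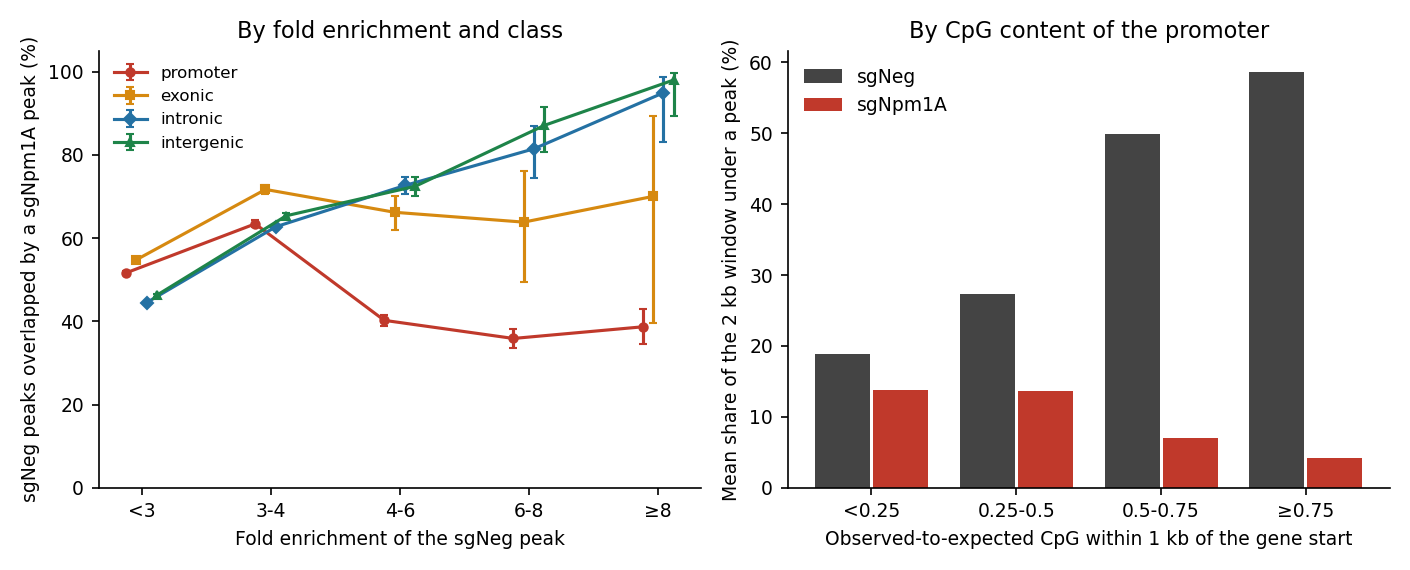
The left panel plots the percentage of sgNeg peaks overlapped by a sgNpm1A peak against bands of the sgNeg fold enrichment, for each genomic class, with bars for the 95% Wilson interval of the count. The right panel plots, as bars from 0, the mean percentage of the 2 kb around protein-coding gene starts under a peak, by observed-to-expected CpG. Promoter peaks of a fold of 8 or more are at 38.7% while intergenic ones are at 98.0%, and in the windows richest in CpG the mean is 58.7% in sgNeg and 4.19% in sgNpm1A.

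Width was the second question. The lists held similar numbers of narrow peaks, and far fewer wide ones in sgNpm1A. Under 500 bp there were 208498 sgNeg and 182797 sgNpm1A peaks (a ratio of 0.877), and from 500 bp to under 3000 bp there were 109511 and 130360 (1.19). From 3000 bp to under 10000 bp there were 8843 and 3789 (0.428), and at 10000 bp or more 814 and 83 (0.102). The median sgNeg peak was 358 bp wide and the median sgNpm1A peak 415 bp, so the typical sgNpm1A peak was not the narrower one. At promoters the 2 widest classes went from 4333 to 1353 peaks (0.312) and from 569 to 54 peaks (0.0949). The fall at 10000 bp or more was not particular to promoters, with 91 to 8 exonic (0.0879), 66 to 6 intronic (0.0909) and 88 to 15 intergenic peaks (0.170). From 3000 bp to under 10000 bp the ratio was 0.624 for exonic, 0.442 for intronic and 0.607 for intergenic peaks.

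A wide peak offers more bases for an overlap of 1 bp, and the kept share rose with width, from 41.9% under 500 bp and 65.1% from 500 bp to under 3000 bp to 76.0% from 3000 bp to under 10000 bp and 92.1% at 10000 bp or more. The share of bases under sgNpm1A peaks did not rise, with 33.8%, 39.8%, 30.1% and 30.8% in the same order. With q under 1e-05 in both lists the order of the kept shares changed, with 51.2% under 500 bp, 14.0% from 500 bp to under 3000 bp, 3.32% from 3000 bp to under 10000 bp and 5.66% at 10000 bp or more. In the same order 635, 5379, 2829 and 565 sgNeg peaks passed this limit, and 1021, 1675, 163 and 11 sgNpm1A peaks. Few wide sgNpm1A peaks were thus left to overlap, which limits the shares of the wide classes. Across the limit of 500 bp the kept share stepped from 51.3% (from 450 bp) to 55.4% (to 549 bp). At the other limits the values were closer. Peaks from 2700 bp to under 3000 bp and of 3000 to 3299 bp were kept at 69.0% and 68.1%, and peaks from 9000 bp to under 10000 bp and of 10000 to 10999 bp at 88.2% and 89.1%. Peaks lying 500 to 1000 bp from a transcript start were kept at 52.4% and those farther out, up to 1500 bp, at 51.5%.

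Most of the 814 widest sgNeg domains held separate, smaller sgNpm1A peaks and were not missing whole. Peaks of sgNpm1A covered 6.86% of the called genome, and whether those inside a domain are its remnants was not tested. In the median domain 24.96% of the bases lay under sgNpm1A peaks (quartiles 8.66% and 46.2%), the median number of sgNpm1A peaks inside was 4, and the median size of the largest of them was 1484 bp, against a median domain width of 13137 bp. There were 64 domains without any sgNpm1A peak, 224 with under 10% of their bases covered and 178 with 50% or more, and 27 that contained or met a sgNpm1A peak of 10000 bp or more. By class, the median coverage was 27.4% for 569 promoter domains, 20.8% for 91 exonic, 15.8% for 66 intronic and 19.7% for 88 intergenic domains.

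**Figure D3:**
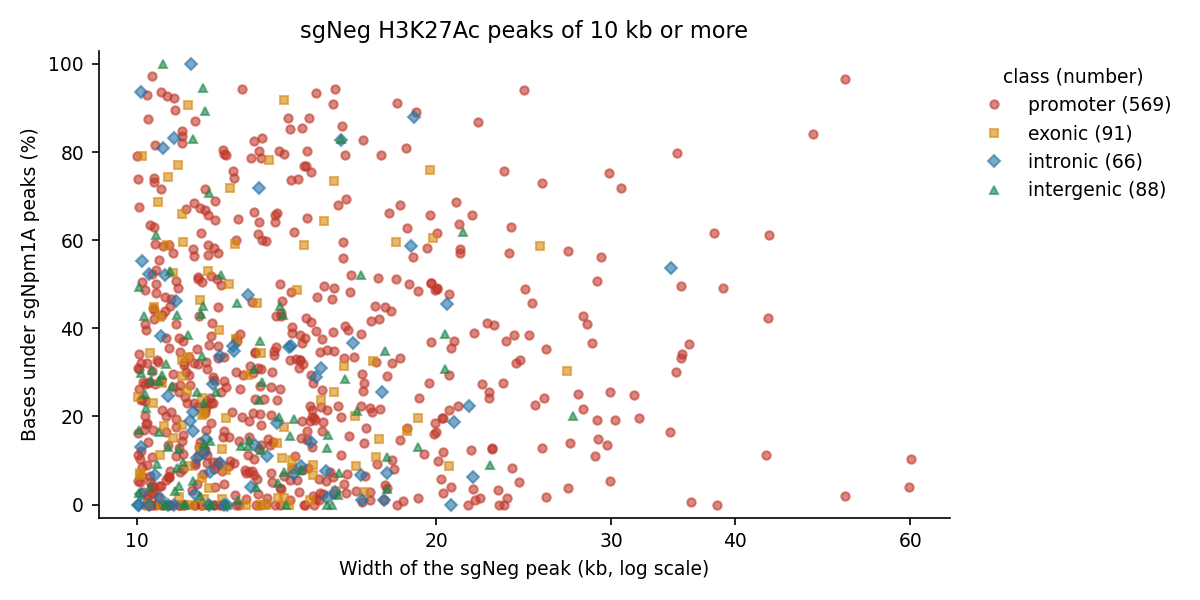
Each point is 1 of the 814 sgNeg H3K27Ac peaks of 10 kb or more, plotted by its width (log scale) and by the percentage of its bases under sgNpm1A peaks, with symbols for the genomic class. The points of every class reach from 0 to far above 50%, with a median of 24.96% over all and 178 points at 50% or more.

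The widest control domains were the HOX clusters and a few other loci. A domain of 60166 bp on chromosome 22 (46430942 to 46491107) was the widest. It touched promoters of no protein-coding gene, its nearest such gene was PPARA (a fatty acid receptor) at 55316 bp, and 10.3% of it was covered in sgNpm1A. The domain over HOXB2, HOXB3, HOXB4, HOXB5 and HOXB6 (chromosome 17, 46618333 to 46678206, 59874 bp, fold 6.32) kept 4.01% of its bases, in 6 sgNpm1A peaks of at most 613 bp. The domain over HOXA7, HOXA9, HOXA10, HOXA11 and HOXA13 (chromosome 7, 27198257 to 27249840, 51584 bp, fold 13.1) kept 2.06%, in 3 peaks of at most 468 bp. Both are homeobox clusters of the mutant NPM1 program, and both shares lay below the 6.86% of the called genome under sgNpm1A peaks. By contrast, the domain at PDE4DIP (chromosome 1, 144986008 to 145037561, 51554 bp), a gene with near-identical copies nearby where the placement of reads is uncertain, kept 96.6%, and the domain at PLEC (chromosome 8, 144985776 to 145033693, 47918 bp), which encodes the cytoskeletal linker plectin, kept 84.2%. The 5 widest sgNpm1A peaks were each at least 78.4% covered in sgNeg. They lay at PDE4DIP (20572 bp), at the amino acid transporter gene SLC6A18 (20077 bp) and between genes nearest to TPTE (39707 bp), CHD1 (34386 bp) and ANGPT1 (28069 bp), where sgNeg had 6 to 8 separate peaks.

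Around gene starts the lists differed in shape. The start base of 9823 of 20098 protein-coding genes (48.9%, 48.2 to 49.6%) lay under a sgNeg peak, and that of 1524 (7.58%, 7.22 to 7.96%) under a sgNpm1A peak. Between 10 and 20 kb away the mean was 14.2% in sgNeg and 10.4% in sgNpm1A. The start was thus 3.44 times the flank in sgNeg and 0.728 times the flank in sgNpm1A, where the lowest point of the profile, 7.53%, lay 250 bp before the start. Of the 9823 starts under a sgNeg peak, 833 (8.48%, 7.95 to 9.05%) were also under a sgNpm1A peak. The share was 24.8% for starts in sgNeg peaks under 500 bp, 6.96% from 500 bp to under 3000 bp, 8.50% from 3000 bp to under 10000 bp and 15.7% at 10000 bp or more.

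**Figure D4:**
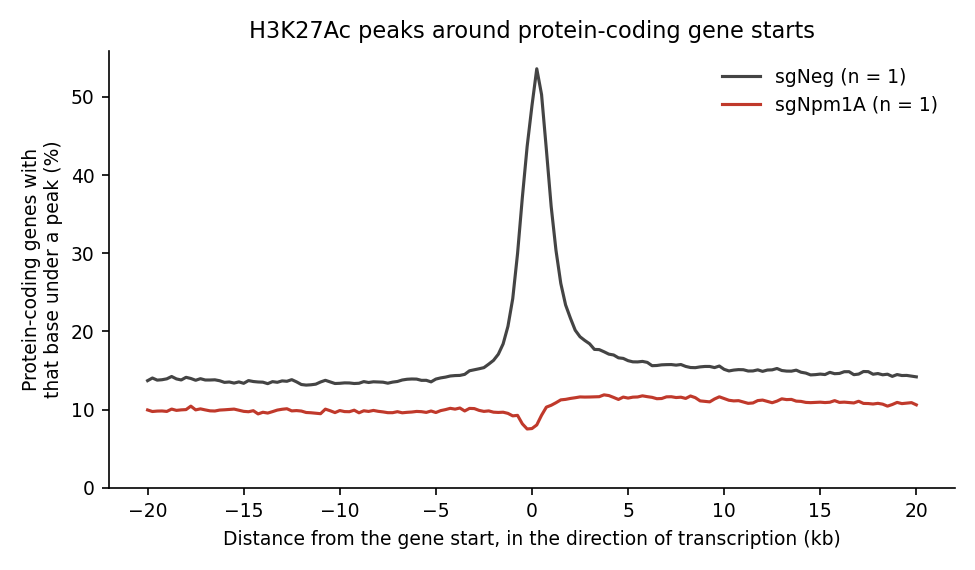
The lines give, for each distance from the start of 20098 protein-coding genes in the direction of transcription, the percentage of genes with that base under an H3K27Ac peak in sgNeg and in sgNpm1A (1 library each). The sgNeg line rises from a flank of 14.2% to 48.9% at the start, and the sgNpm1A line dips from a flank of 10.4% to 7.58%.

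The CpG content of the promoter, measured as observed-to-expected CpG in the 2 kb around the gene start (median 0.612 over all protein-coding genes), went along with this split. In windows under 0.25, the mean share of the window under a peak was 18.8% in sgNeg and 13.8% in sgNpm1A. From 0.25 to 0.5 it was 27.3% and 13.6%, from 0.5 to 0.75 it was 49.9% and 7.03%, and at 0.75 or more it was 58.7% and 4.19%. Coverage rose with CpG in sgNeg and fell with CpG in sgNpm1A. Of the start bases, 35.4% (32.2 to 38.9%) of those covered in sgNeg were also covered in sgNpm1A under 0.25, 24.4% from 0.25 to 0.5, 4.84% from 0.5 to 0.75 and 1.77% (1.36 to 2.30%) at 0.75 or more. Over all sgNeg promoter peaks, the median observed-to-expected CpG was 0.307 in missing and 0.251 in kept ones. It differed in the middle widths, with 0.583 and 0.253 from 500 bp to under 3000 bp and 0.547 and 0.321 from 3000 bp to under 10000 bp, and little elsewhere, with 0.219 and 0.214 under 500 bp and 0.299 and 0.294 at 10000 bp or more. Over all sgNeg peaks the missing ones were lower in G and C than the kept ones, with a median of 46.3% against 49.3%, and the part of base composition in the difference was not tested.

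Of the HOX genes, their cofactors, the menin and MLL partners and the myeloid transcription factors listed here, HOXA7 and MYC had their start under a peak in both lists. All named protein-coding genes with their start under a peak in both lists were then ranked by the lower of their 2 percentiles within the lists. The highest were ZNF595, CPN2, FCMR, SLC6A18 and CD300H, a ranking made after the data were seen. At FCMR the sgNeg peak was 4655 bp with a fold of 5.31 and the sgNpm1A peak 5471 bp with a fold of 5.27. At CPN2 the peaks were 2122 bp (fold 5.75) and 2188 bp (fold 4.50), and at ZNF595, a zinc finger gene at the end of chromosome 4, 22022 bp (fold 9.44) and 15675 bp (fold 4.80). By promoter peaks, 3113 genes were at or above the 99th percentile in sgNeg and 201 in sgNpm1A, and 46 were in both, which is 1.48% of the first and 22.9% of the second.

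Counted by promoter windows instead of start bases, 10520 protein-coding genes had a peak within 1 kb of any of their starts in both lists, 5430 in sgNeg alone, 979 in sgNpm1A alone and 3169 in neither. Of the 15950 promoters with a sgNeg peak, 34% were missing in sgNpm1A, and of the 11499 with a sgNpm1A peak, 8.51% were missing in sgNeg. Genes can pass this count through a weak peak at a secondary start. A promoter here is a window over all starts of a gene, so a gene can count as kept while its highest sgNeg peak is missing. The highest sgNeg peak itself was overlapped in 6492 of the 10520 genes (61.7%). For the 500 genes whose highest sgNeg promoter peak was 10000 bp or wider, 405 had a sgNpm1A peak, of a narrower class in 390 of them. The mean share of their start window under a peak was 85.8% in sgNeg and 20.7% in sgNpm1A.

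Genes without any sgNpm1A peak at their promoters were ranked by their highest sgNeg promoter peak in each width class. Under 500 bp the first were SUZ12, a subunit of the Polycomb repressive complex (chromosome 17, 30264120 to 30264547, fold 7.79), the near-identical copies NOTCH2NLB, NOTCH2NLC and NOTCH2NLR on 1 shared peak (fold 6.61, placement of reads uncertain) and IQUB (fold 6.599). From 500 bp to under 3000 bp they were ZNRF2, an E3 ubiquitin ligase (chromosome 7, 30324280 to 30326300, fold 13.8), UBE2G1, a ubiquitin-conjugating enzyme (fold 12.3), and PPP4R3A, a regulator of protein phosphatase 4 (fold 11.3). From 3000 bp to under 10000 bp they were CPEB2, which binds polyadenylation elements of mRNAs (chromosome 4, 15002651 to 15008197, fold 13.8), ANXA2R (fold 12.3) and H3-3A, which encodes a replication-independent histone H3 (fold 11.5). At 10000 bp or more they were the homeobox gene ISL2 (fold 13.6), HOXA11 with HOXA13 (13.1) and SFMBT2, a Polycomb group gene (11.9). The domains at ISL2, HOXA11 and SFMBT2 and the peak at ANXA2R did meet sgNpm1A peaks outside the promoter windows, which covered 2.72%, 2.06%, 11.2% and 25.9% of their bases.

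Among promoters that counted as kept, the highest were often covered only in part, or had a sgNpm1A peak at another start. EP300, which encodes the acetyltransferase that writes this mark, had a sgNeg peak of 2839 bp (chromosome 22, 41486654 to 41489492, fold 12.3) that no sgNpm1A peak touched, and a sgNpm1A peak of 738 bp (fold 3.16) at another start. ATAD2 and TMED9 were of the same kind. HNRNPU, an RNA-binding protein gene, had 19.6% of its peak of 4001 bp covered (fold 13.8), HNRNPH1 19.3% of 2132 bp (fold 12.04), GOLPH3 18.6% of 4000 bp (fold 12.9) and ZNF131 3.55% of 6113 bp (fold 13.5). The domains at TNRC18 (15247 bp, fold 14.3) and BAHCC1 (31997 bp, fold 12.4), a pair of related chromatin protein genes, kept 0.958% and 19.6%. Full overlap was seen at 2 narrow peaks, at PPP2CB, a catalytic subunit of protein phosphatase 2A (338 bp in sgNeg with a fold of 9.03, 340 bp in sgNpm1A with a fold of 7.66), and at TYW3, a tRNA modification gene (238 bp and 367 bp). They held 30.5% and 26.5% of G and C, the lowest of the promoter peaks named here.

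The promoters that ranked highest in both lists together were ZMYND11, PPP2CB, PTPRF, RAB40B, MGRN1, RICTOR, ZNF236 and CYP4V2, all at or above the 99.79th percentile in each list. In none of the 8 did a sgNpm1A peak cover the gene start, while some sgNeg peak, not always the one ranked, did at ZMYND11, MGRN1, RICTOR, ZNF236 and CYP4V2. At RAB40B the peaks nearly coincided, with 879 bp (fold 8.44) and 926 bp (fold 10.5), as at MGRN1 with 767 bp and 817 bp. At RICTOR, ZNF236 and CYP4V2 the high peaks of the lists lay at different starts of the gene and did not overlap.

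The gene lists follow, from the homeobox program outward. Each count is of genes with a peak within 1 kb of any start, and the window share is the mean share of the 2 kb around the gene start under a peak. Over all protein-coding genes 79.4% had a sgNeg peak and 57.2% a sgNpm1A peak, and the window share was 42.2% in sgNeg and 8.79% in sgNpm1A. Of all protein-coding genes with a sgNeg peak, 34% had no sgNpm1A peak, the background for genes named below as without one. The window sits on the start of the gene record, so a gene such as ACTB can have a peak at another start and a sgNeg window share of 0. The members of a list and these groups were picked with results of these data known, and the shares describe 1 pair of libraries.

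HOXA genes had a sgNeg peak at 9 of 11 and a sgNpm1A peak at 6 of 11, with window shares of 64.4% and 7.03%. HOXA3, HOXA6, HOXA11 and HOXA13 had a peak in sgNeg alone, and HOXA4 and HOXA5 in sgNpm1A alone. At HOXA9, a driver of this leukemia, the sgNeg domain covered 100% of the window, and a sgNpm1A peak of 468 bp (fold 3.08) covered 23.4%. HOXA7 was the single HOX gene whose start base lay under a sgNpm1A peak, one of 330 bp. HOXB genes had peaks at 9 of 10 and 4 of 10, with window shares of 50.7% and 5.27%. HOXB2, HOXB4 and HOXB5, each with 100% of the window covered in sgNeg, had no sgNpm1A peak. The HOXC and HOXD clusters, at 7 and 6 of 18, were little acetylated in either list, with window shares of 3.89% and 3.17%.

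All 9 HOX cofactor genes had a peak in both lists, yet their window share was 48.6% in sgNeg and 1.70% in sgNpm1A. At MEIS1, which binds DNA with HOXA9, a sgNeg domain of 19181 bp (fold 6.52, 99.4th percentile) covered the window, and the sgNpm1A peak was 306 bp (fold 2.77, 22.9th percentile) and covered 15.3%. At PBX3, PBX2 and PKNOX1 the sgNeg peaks covered 100% of the window, while sgNpm1A peaks of 153, 270 and 1996 bp lay at other starts and covered none of it. Of the menin and MLL partners, 12 of 12 had a sgNeg peak and 7 a sgNpm1A peak. MEN1 (menin), PSIP1, MLLT3, AFF4 and DPY30 had one in sgNeg alone. At KMT2A, which encodes MLL, and at DOT1L, a histone methyltransferase, the windows were 100% and 73.5% covered in sgNeg and not at all in sgNpm1A.

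Myeloid transcription factors were covered over 76.9% of the window in sgNeg and 10.7% in sgNpm1A, with 22 of 22 and 15 of 22 genes. CEBPA, CEBPD, CBFB, MYB, ETV6, EGR1 and ZEB2 had no sgNpm1A peak. These 7 of 22 are near the 34% missing over all protein-coding promoters with a sgNeg peak, so this count does not set the list apart. At MYB, a progenitor factor, the sgNeg domain was 21514 bp with a fold of 7.20. At SPI1, which encodes PU.1, a sgNeg peak of 6304 bp (fold 10.5) covered the window, and sgNpm1A peaks covered 24.5% of it. MYC was the single member whose start lay under a sgNpm1A peak, with 37.9% of its window covered against 100% in sgNeg. IRF4 had more in sgNpm1A, 33.9% against 7.60%. RARA, a retinoic acid receptor, was the member with the closest values, 45.0% in sgNeg and 37.2% in sgNpm1A. The start of its gene record lay under no peak in either list, so these values describe that window and not other RARA starts. The study itself reported less H3K27Ac at the enhancer and promoter of RARA after depletion of mutant NPM1. Genes of survival and cell death showed 9 of 9 and 5 of 9. BCL2 went from 100% of the window in sgNeg to 17.8%, MCL1 from 97.7% to 11.9%, and BCL2A1, BCL2L11, BAK1 and PMAIP1 had no sgNpm1A peak.

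Cell type markers were compared in sgNeg, which bears on the myeloid origin of the cells and cannot tell one AML line from another. In sgNeg 12 of 12 myeloid markers had a promoter peak with a median percentile of 94.3, against 7 of 8 lymphoid (63.8), 6 of 8 erythroid and megakaryocytic (50.02), 5 of 8 hepatocyte (47.2) and 7 of 8 neuron markers (69.3), where a gene without a peak counted as 0. Over all protein-coding genes this median was 92.5, close to the myeloid value, and for housekeeping genes it was 99.5. The lists of other cells had lower window shares in sgNeg, and these differed less between the lists. Window shares were 71.7% and 10.4% for myeloid markers, 19.1% and 18.8% for lymphoid, 15.2% and 13.0% for erythroid and megakaryocytic, 45.4% and 27.6% for hepatocyte and 19.8% and 22.3% for neuron markers. MPO, the granule enzyme myeloperoxidase, went from 100% of the window to 30.5%, and ELANE and LYZ had no sgNpm1A peak. ITGAM, which encodes CD11b, had 14.2% in sgNeg and 21.9% in sgNpm1A. Its highest sgNpm1A peak, of 1478 bp at the 98.9th percentile, lay at another start far inside the gene. GRIN1, a glutamate receptor gene of neurons, had 77.7% and 57.3% and the highest sgNpm1A fold of its list, 6.93. How much a mixture of cells adds to a list cannot be told from bulk libraries, where fewer acetylated cells and less acetylation in each cell are not separable.

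By window share, genes that all cells use were among those with the least sgNpm1A coverage. Of 14 housekeeping genes 14 had a sgNeg peak and 9 a sgNpm1A peak, with window shares of 75.02% and 4.63%. GAPDH and B2M were covered over 100% and 99.3% of the window in sgNeg and over none in sgNpm1A, TBP, TFRC, HPRT1 and PGK1 had no sgNpm1A peak, and SDHA had the most, 44.7%. Genes of RNA splicing had 18 of 18 and 12 of 18 and window shares of 83.5% and 0.669%, and SF3B1, U2AF1, SRSF3, HNRNPA1, HNRNPC and HNRNPK were without a sgNpm1A peak. Translation initiation genes had 18 and 10 of 19, with 81.4% and 1.35%. Genes for histone acetylation and BET proteins had 14 and 12 of 14, with 73.7% and 5.03%. Missing in sgNpm1A were 5 of 14 housekeeping and 6 of 18 splicing genes, near the 34% over all genes with a sgNeg peak. For translation initiation it was 8 of 18, and for histone acetylation and BET proteins 2 of 14. By this count the housekeeping and splicing lists were thus not set apart. CREBBP was covered over 77.5% of its window in sgNeg and over none in sgNpm1A.

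Cytosolic ribosomal protein genes had a sgNeg peak at 81 of 83 and a sgNpm1A peak at 27, so that 54 were missing against a background of 34%. Their window shares were 74.6% and 4.32%. RPL8 and RPS27 alone kept their start under a peak, and RPL8, on chromosome 8, had 70.6% of its window covered in sgNpm1A. Olfactory receptor genes, which are silent in blood cells and poor in CpG, went the other way, with a peak at 122 of 399 in sgNeg and 158 in sgNpm1A and window shares of 5.90% and 8.78%.

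**Figure D5:**
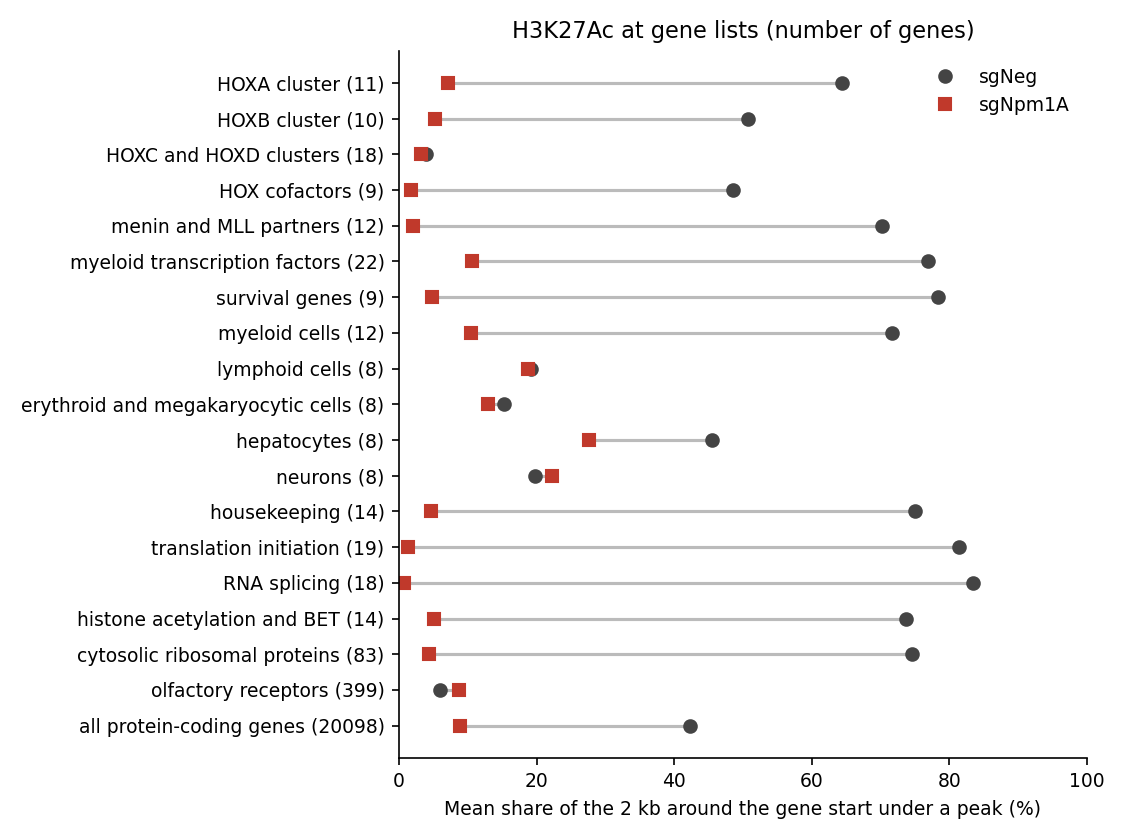
For each gene list (number of genes in brackets) the circle gives the mean percentage of the 2 kb around the gene start under a sgNeg peak and the square the same for sgNpm1A (1 library each). RNA splicing genes are at 83.5% in sgNeg and 0.669% in sgNpm1A, while lymphoid markers are at 19.1% and 18.8%.

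Away from promoters, several of the strongest wide peaks were kept nearly whole. The intergenic sgNeg peaks of 3000 bp or more with the highest fold were at chromosome 6, 58776243 to 58779857 (fold 53.3 in sgNeg and 65.6 in sgNpm1A, 91.4% covered), chromosome 7, 61967403 to 61971118 (18.7 and 22.7, 99.7%), chromosome 10, 42393856 to 42397215 (12.1 and 10.9, 93.6%) and chromosome 2, 133024642 to 133027839 near ANKRD30BL (10.1 and 4.67, 78.4%). The first 3 lie 1262866, 1488108 and 672417 bp from the nearest protein-coding gene, so they stand far from any annotated promoter of such a gene. The placement of reads at these 3 loci was not checked, so their high folds in both lists need not reflect kept acetylation. Among intronic ones, a peak in a noncoding gene on chromosome 7 (155748615 to 155752631, fold 18.8 and 24.1) was 96.5% covered, and one in AHRR, the repressor of the aryl hydrocarbon receptor (fold 16.1), 59.9%. Others that counted as kept held little, such as the domain of 12916 bp nearest to KCND2 (13.4%) and the intronic peaks in PRAG1 (2.55%) and nearest to JARID2 (3.11%), while one nearest to DTWD2 held 83.4%.

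Among the missing distal peaks, 1 of 20711 bp in ATP8B4 (chromosome 15, 50343318 to 50364028, fold 6.94) had no sgNpm1A peak, and neither had those in GAS7 (4943 bp, fold 7.34) and ABR (4555 bp, fold 7.03), nor the intronic peaks nearest to FOXP4 (3513 bp, fold 8.14) and CITED2 (5762 bp, fold 7.30). Intergenic ones lay nearest to FIGN (3484 bp, fold 7.62), MSMB (7840 bp, fold 7.18), DNAJC5B (7311 bp, fold 7.17), SUGP2 (6590 bp, fold 6.99) and PPFIA2 (10686 bp, fold 6.96), at distances of 17029 to 242892 bp. The nearest gene names a place and not a target.

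Promoters with a sgNpm1A peak alone were weak and narrow, with a median width of 374 bp and a median percentile of 42.1. Under 500 bp the highest were at TBC1D3C and TBC1D3H, near-identical copies on 1 shared peak (173 bp, fold 4.34), MYBPC1 (218 bp, fold 4.28) and ZNF679 (310 bp, fold 4.201), and, from 500 bp to under 3000 bp, at CHRM5 (fold 4.29), CALML5 (fold 3.87) and OR51M1 (fold 3.76). PERM1 and XKR4 were the 2 genes with such a peak of 3000 bp or more. The peaks at CHRM5, CALML5, PERM1 and XKR4 met a sgNeg peak outside the promoter window, covering 31.7%, 84.8%, 12.7% and 12.4% of them.

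Chromosomes differed in how much was kept. In sgNpm1A the peaks were densest on chromosomes 1, 5, 7, 8 and 17, with 146 to 251 per Mb. Chromosome 8 was the densest in both lists, with 252 per Mb in sgNeg. On these 5 chromosomes, a split chosen after the data were seen, promoter coverage had a ratio of 0.666 (26.3% and 17.5%), against 0.471 (18.2% and 8.57%) on the other autosomes. Peaks of 10000 bp or more went from 374 to 73 there and from 435 to 10 on the other autosomes, and starts under a sgNeg peak stayed under a sgNpm1A peak at 15.4% (14.1 to 16.7%) and 5.38% (4.86 to 5.96%). Promoters were the class with the lowest ratio in both sets. The intergenic ratio was 1.16 on the 5 chromosomes and 0.933 on the other autosomes, and the intronic ratio 1.04 and 0.853. On chromosome X, with few peaks in either list (8.15 and 2.80 per Mb), the ratio for promoter coverage was 0.0305. It was 0.186 for exonic, 0.178 for intronic and 0.185 for intergenic coverage there. The part of this density in the other results was not tested.

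H3K4me3, which marks the nucleosomes at active promoters, was compared by gene at 19058 genes, since those peak lists are on GRCh38. They also carry the other cell tag. In sgNeg it was present within 1 kb of the gene start at 77.1% (76.3 to 77.9%) of genes with H3K27Ac in both lists and at 77.8% (76.6 to 78.9%) of genes with H3K27Ac in sgNeg alone. In sgNpm1A it was present at 12.1% (11.5 to 12.7%) and 1.14% (0.880 to 1.47%) of the same genes. The first pair differed by the width of the sgNeg H3K27Ac peak. Under 500 bp the shares in sgNeg were 55.7% for genes in both lists and 44.1% for sgNeg alone, and from 500 bp to under 3000 bp they were 81.4% and 84.6%. Genes with H3K27Ac in sgNpm1A alone had H3K4me3 at 32.1% in sgNeg and 11.4% in sgNpm1A, and genes with neither at 11.6% and 2.27%. The sgNpm1A list for H3K4me3 is also short, with 106629 peaks against 353578, and its share over all 19058 genes was 7.63%, against 65.2% in sgNeg.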

How the data were processed

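H3K27Ac was profiled by ChIPmentation, in which the Tn5 transposase tags immunoprecipitated chromatin, in 1 sgNeg and 1 sgNpm1A library. Peak lists were made by the authors, 1 per library, and the submitters' processing notes name Trimmomatic 0.33, Bowtie 1.1.2 and MACS2 2.1.0. Caller settings are not given in the sources used here. The deposited fold (a ratio of pileup over expected background), the deposited −log10 p-value and the deposited −log10 q-value were used. The deposited score was not. The notes name hg38, yet H3K27Ac peaks on chromosome 1 pass the hg38 end of that chromosome, so hg19 was used with GENCODE 44 mapped to it, while H3K4me3 lists are on GRCh38 and were joined by gene. Read totals are unknown, 2 input libraries were not analysed here, and 49 sgNeg and 30 sgNpm1A rows on other sequences were left out.

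Overlaps, classes and intervals were computed in Python 3.11.15 with NumPy 2.4.6 and pandas 2.3.3, and tested on simulated peaks. Members and gene lists were chosen with earlier results of these data known. Named genes were, per width class of the highest sgNeg promoter peak, the 3 highest genes without and the 3 with a sgNpm1A peak at any of their promoters, the 8 promoters highest in both lists, the 5 widest peaks of each list, the 5 highest kept and missing intergenic and intronic peaks of 3000 bp or more, the 3 highest promoter peaks of sgNpm1A alone, and the members of the lists. Genes outside this rule are said to be picked after their values were seen. Alternatives were stricter q limits, the 50000 rows of lowest p, other overlaps, merging, promoter windows and chromosome sets. Values of some single members of the lists are not reported here.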

Additional observations from a re-analysis of the deposited data

How the results depend on the processing

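No paired analysis was possible because each group has 1 library, and no library could be left out. The kept shares moved with the threshold and the overlap, and classes and widths below are of sgNeg peaks. Promoters had the lowest kept share of the 4 classes with stricter q, more overlap, the rows of lowest p or the midpoint, and intronic peaks had it otherwise. The chromosome sets were chosen after seeing the data. With q under 0.01 in both lists, the kept shares were 39.7% of sgNeg peaks, 27.6% of sgNpm1A peaks, 31.1% of promoter, 45.4% of exonic, 41.04% of intronic, 44.5% of intergenic, 34.9% under 500 bp, 41.999% from 500 bp to under 3000 bp, 45.5% from 3000 bp to under 10000 bp and 72.9% at 10000 bp or more. Protein-coding promoters with a peak then numbered 4648 in both lists and 1500 in sgNpm1A alone. With q under 1e-05 in both lists, the kept shares were 12.8% of sgNeg peaks, 41.7% of sgNpm1A peaks, 2.52% of promoter, 16.1% of exonic, 40.3% of intronic, 44.6% of intergenic, 51.2% under 500 bp, 13.96% from 500 bp to under 3000 bp, 3.32% from 3000 bp to under 10000 bp and 5.66% at 10000 bp or more. Protein-coding promoters with a peak then numbered 107 in both lists and 75 in sgNpm1A alone. The sgNpm1A list then held few promoter peaks and few wide peaks, which limits the kept shares of those classes. With q under 1e-05 in the described list and every peak of the other, the kept shares were 48.7% of sgNeg peaks, 97.4% of sgNpm1A peaks, 38.8% of promoter, 66.1% of exonic, 74.8% of intronic, 75.1% of intergenic, 82.4% under 500 bp, 33.9% from 500 bp to under 3000 bp and 61.05% from 3000 bp to under 10000 bp. Protein-coding promoters with a peak then numbered 4239 in both lists, 2935 in sgNeg alone and 0 in sgNpm1A alone. With at least 50% of the peak covered, the kept shares were 35.5% of sgNeg peaks, 32.6% of sgNpm1A peaks, 31.5% of promoter, 39.6% of exonic, 34.97% of intronic, 37.1% of intergenic, 33.6% under 500 bp, 39.9% from 500 bp to under 3000 bp, 25.2% from 3000 bp to under 10000 bp and 21.9% at 10000 bp or more. With a peak of the other list within 1 kb, the kept shares were 65.1% of sgNeg peaks, 63.2% of sgNpm1A peaks, 66.2% of promoter, 73.7% of exonic, 63.5% of intronic, 64.6% of intergenic, 59.1% under 500 bp, 75.1% from 500 bp to under 3000 bp and 79.01% from 3000 bp to under 10000 bp. With rows within 500 bp merged, the kept shares were 50.9998% of sgNeg peaks, 53.3% of promoter, 59.6% of exonic, 41.5% under 500 bp, 65.6% from 500 bp to under 3000 bp and 77.5% from 3000 bp to under 10000 bp. With the 50000 rows of lowest p in each list, the kept shares were 27.9% of sgNeg peaks, 28.3% of sgNpm1A peaks, 18.1% of promoter, 31.4% of exonic, 31.1% of intronic, 34.5% of intergenic, 26.3% under 500 bp, 28.8% from 500 bp to under 3000 bp, 26.9% from 3000 bp to under 10000 bp and 51.6% at 10000 bp or more. Protein-coding promoters with a peak then numbered 2474 in both lists and 9026 in sgNeg alone. By the class of the midpoint, the kept shares were 49.2% of promoter, 56.1% of exonic, 50.3% of intronic and 51.1% of intergenic. On chromosomes 1, 5, 7, 8 and 17 alone, the kept shares were 61.3% of sgNeg peaks, 60.5% of sgNpm1A peaks, 63.1% of promoter, 68.3% of exonic, 59.1% of intronic, 62.2% of intergenic, 50.6% under 500 bp, 76.5% from 500 bp to under 3000 bp, 87.7% from 3000 bp to under 10000 bp and 97.1% at 10000 bp or more. Without chromosomes 1, 5, 7, 8 and 17, the kept shares were 42.6% of sgNeg peaks, 44.3% of sgNpm1A peaks, 46.5% of promoter, 52.7% of exonic, 40.2% of intronic, 40.99% of intergenic, 35.8% under 500 bp, 54.7% from 500 bp to under 3000 bp, 66.9% from 3000 bp to under 10000 bp and 87.95% at 10000 bp or more. Promoter windows of 500 bp or 2 kb, and starts of protein-coding genes only, moved none of these shares or counts beyond its interval or 1.5 times. The cause of these moves was not tested. Read depth and the efficiency of each immunoprecipitation are unknown, and both limit which peaks were called in either library.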
